A study of Mus musculus with 8 samples.

Results

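In newborn mouse epidermal progenitors, 319 regions carried a called H2AK119ub peak of similar width in Eed cKO and in control cells and lay away from the ends of protein-coding genes. They were chosen from 1470 pairs in which 1 Eed cKO peak overlapped exactly 1 control peak, and the reverse, by at least 1 bp. The Eed cKO width divided by the control width had to exceed 0.67 and stay below 1.5. The control peak also had to miss every window of 2000 bp on either side of the start or end of a protein-coding gene in RefSeq for mm10. The overlap, the width ratio and the distance from gene ends thus define the 319 pairs and are given below as description only.

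The study profiled this histone mark by chromatin immunoprecipitation and sequencing in 3 genotypes at postnatal day 0. The Eed cKO group held 2 H2AK119ub libraries with the labelled genotype Eed-/-, and the control group held 2 libraries labelled Control, whose alleles the labels do not spell out. A Ring1a-/- Ring1b-/- library and the inputs were not analysed here. In every group the cells were interfollicular epidermis sorted as positive for EpCAM and Sca1 with high α6-integrin. The labels name neither the Cre line that deleted Eed nor the animals and litters behind each library. Peak positions of a mark of repressed chromatin do not measure expression, so the cell type could not be checked against its defining transcripts, nor the loss of Eed against its own.

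H2AK119ub is histone H2A with 1 ubiquitin on a lysine in its tail, placed by RING1A or RING1B in Polycomb repressive complex 1 (PRC1). EED belongs to Polycomb repressive complex 2 (PRC2), where it binds methylated H3K27 and is needed for that methylation. Canonical PRC1 is recruited through subunits that read this methylation, while variant PRC1 with RYBP can be recruited without it, for example by KDM2B at unmethylated CpG islands. In epidermis these complexes are known for keeping genes of other lineages silent.

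Each genotype had 1 deposited peak list with no height, score or read count, so every width and position below is a single value per genotype with no replicate error and no test. Read depth is unknown, and a region absent from a list may reflect less mark, fewer reads or a call threshold. Intervals in brackets are 95% Wilson intervals. They cover counting error only, and neighbouring regions are not independent.

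Although the regions avoided the ends of annotated gene spans, 42 of the 319 held the start of an annotated transcript inside a gene or of a non-coding RNA. Promoter sequences from RefSeq GRCm38.p6 (mm10), running from 250 bases before to 50 bases after the start, are shown for 6 of them, selected after their values were seen. The first 4 are rich in CpG dinucleotides and the last 2 are poor in them, which shows both kinds of start met in these regions. Each reads 5′ to 3′ in the direction of transcription, and capitals mark CpG, a C followed by a G, which reads the same on both strands. Lingo1 encodes a Nogo receptor partner, Shank3 a postsynaptic scaffold, Pde10a a cyclic nucleotide phosphodiesterase and Gpr1 a receptor for chemerin, while Miat and Gm40047 are long non-coding RNAs (lncRNAs).
Lingo1, chr9:56635599-56635898, minus strand: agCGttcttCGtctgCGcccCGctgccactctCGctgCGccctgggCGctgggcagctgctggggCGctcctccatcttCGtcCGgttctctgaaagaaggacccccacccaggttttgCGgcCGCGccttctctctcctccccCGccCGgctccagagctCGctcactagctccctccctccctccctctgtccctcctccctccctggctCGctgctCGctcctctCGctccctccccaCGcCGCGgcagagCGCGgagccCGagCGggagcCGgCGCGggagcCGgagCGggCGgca
Shank3, chr15:89499358-89499657, plus strand: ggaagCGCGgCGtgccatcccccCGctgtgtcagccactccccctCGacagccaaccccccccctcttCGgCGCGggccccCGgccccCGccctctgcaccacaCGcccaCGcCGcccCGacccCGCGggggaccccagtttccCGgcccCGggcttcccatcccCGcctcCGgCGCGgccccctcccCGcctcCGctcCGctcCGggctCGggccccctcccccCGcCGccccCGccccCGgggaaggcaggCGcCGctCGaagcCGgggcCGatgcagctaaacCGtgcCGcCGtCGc
Pde10a, chr17:8801495-8801794, plus strand: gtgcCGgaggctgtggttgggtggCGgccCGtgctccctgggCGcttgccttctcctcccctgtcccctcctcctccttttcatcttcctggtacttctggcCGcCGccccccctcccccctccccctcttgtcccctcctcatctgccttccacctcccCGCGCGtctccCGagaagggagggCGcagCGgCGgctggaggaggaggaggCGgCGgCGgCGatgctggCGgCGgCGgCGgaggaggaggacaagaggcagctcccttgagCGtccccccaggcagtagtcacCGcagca
Miat, chr5:112228899-112229198, minus strand: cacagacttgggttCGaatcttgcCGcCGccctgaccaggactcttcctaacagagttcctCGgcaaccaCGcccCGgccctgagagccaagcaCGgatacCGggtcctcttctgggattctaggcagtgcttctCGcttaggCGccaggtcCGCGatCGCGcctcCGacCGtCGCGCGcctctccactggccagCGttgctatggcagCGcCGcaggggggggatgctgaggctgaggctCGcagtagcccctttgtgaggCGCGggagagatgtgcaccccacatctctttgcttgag
Gm40047, chr3:52579885-52580184, plus strand: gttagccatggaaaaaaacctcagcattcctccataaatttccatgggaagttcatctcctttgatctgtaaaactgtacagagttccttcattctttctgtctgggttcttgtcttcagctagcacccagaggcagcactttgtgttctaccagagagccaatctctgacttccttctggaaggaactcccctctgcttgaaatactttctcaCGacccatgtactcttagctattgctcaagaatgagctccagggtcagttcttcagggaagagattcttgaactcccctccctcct
Gpr1, chr1:63210667-63210966, minus strand: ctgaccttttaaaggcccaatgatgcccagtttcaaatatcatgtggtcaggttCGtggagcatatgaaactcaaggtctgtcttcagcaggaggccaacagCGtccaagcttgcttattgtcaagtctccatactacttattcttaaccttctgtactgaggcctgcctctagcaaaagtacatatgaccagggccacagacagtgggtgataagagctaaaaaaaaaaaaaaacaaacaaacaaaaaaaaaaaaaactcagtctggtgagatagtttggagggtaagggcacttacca

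These windows held 32 CpG for Lingo1, 40 for Shank3, 23 for Pde10a and 25 for Miat, against 1 for Gm40047 and 2 for Gpr1. All 6 lay wholly inside the stretch covered by both the Eed cKO and the control peak. The region inside Tcf20, a transcriptional coregulator gene, was the only one of the 319 that held an annotated microRNA, Mir3080. Its mature forms are shown because the whole hairpin lay in both peaks, with the seed (bases 2 to 8) in capitals.
mmu-miR-3080-5p, chr15:82959266-82959285, minus strand: uGAAGCGCcuguucuuggau
mmu-miR-3080-3p, chr15:82959228-82959249, minus strand: uCCUCGGGcaaagcgcuugaca

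The 319 regions were 21.7% of all 1-to-1 pairs (19.7 to 23.9). Of the 1470 pairs, 853 had a stable width by the same thresholds, or 58.0%, so the regions were 37.4% of the stable pairs. Another 534 stable pairs lay at gene ends. Control peaks overlapped by an Eed cKO peak numbered 1751 of 4621, or 37.9%, and Eed cKO peaks overlapped by a control peak numbered 1781 of 2541, or 70.1%. Among the 2356 control peaks away from gene ends, the regions were 13.5% (12.2 to 14.98), 282 others belonged to a pair outside the width thresholds, 110 were split or fused and 1645 met no Eed cKO peak. The stable pairs at gene ends were 23.6% of the 2265 control peaks there (21.9 to 25.4). The Eed cKO peaks of the 319 pairs covered 1.72 Mb, which was 10.3% of all sequence under Eed cKO peaks, and their control peaks covered 1.65 Mb, which was 5.68% of that under control peaks.

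Widths spanned a wide range. Eed cKO peaks had a median width of 4.44 kb (quartiles 2.68 and 7.13, range 0.724 to 31.5) and control peaks one of 4.49 kb (quartiles 2.64 and 6.37, range 0.623 to 36.3). The stable pairs at gene ends were wider, with medians of 6.61 kb in Eed cKO and 6.64 kb in control. Control peaks away from gene ends that met no Eed cKO peak had a median of 3.17 kb. Within the permitted band, the ratio of Eed cKO to control width had a median of 1.04 (quartiles 0.917 and 1.23), and the Eed cKO peak was the wider one in 194 of 319 pairs (60.8%, 55.4 to 66.0). At gene ends the Eed cKO peak was wider in 274 of 534 stable pairs (51.3%, 47.1 to 55.5). In the pairs away from gene ends but outside the width thresholds it was wider in 172 of 282 (61.0%, 55.2 to 66.5).

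**Figure D1:**
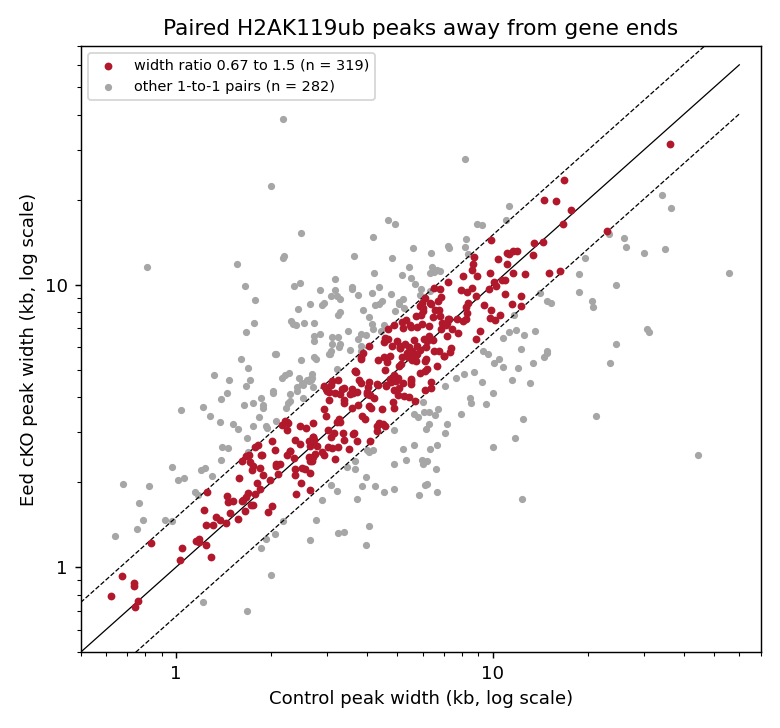
Width of the Eed cKO peak against width of the control peak in kb, on log axes, for each pair away from gene ends. The 319 stable-width pairs lie between the lines for ratios of 0.67 and 1.5, along which the selection was made, and reach 31.5 kb in Eed cKO and 36.3 kb in control.

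Close to the lower width threshold, the last regions inside were in Phf24 (ratio 0.675), near Glrx3 (0.676) and in Zfp423 (0.681), and the first pairs outside were in Ttbk1 (0.668), near Kcnj6 (0.668) and near Bbs2 (0.660). At the upper threshold the regions near Ssc4d (1.496), near Lmx1b (1.495) and in Slc25a21 (1.495) were inside, and the pairs in Kcnq1 (1.503), near Zfp90 (1.504) and in Stx8 (1.508) were outside. By distance to a gene end, the control peaks in Slit1 (2004 bp), Shank3 (2055 bp) and Celf5 (2077 bp) were just inside, and those near Smug1 (1995 bp), in Septin3 (1950 bp) and near Irx5 (1844 bp) just outside. Regions on either side of each threshold thus differed little in the values used, and membership close to it is arbitrary.

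A width ratio and 1 bp of overlap leave the positions of the edges free, although the ratio caps how fully a pair can coincide. The length shared by both peaks was a median of 79.6% of the length they covered jointly (quartiles 68.1 and 89.4, range 15.3 to 99.1), called the shared percentage below. It was at least 80% in 156 regions (48.9%) and under 50% in 28 (8.78%, 6.14 to 12.4). The stable pairs at gene ends had a median of 79.7%, with 263 of 534 at 80% or more (49.3%) and 29 under 50% (5.43%, 3.81 to 7.69). The centres of the Eed cKO and control peaks lay a median of 373.5 bp apart, which was 9.05% of the control width, and at most 500 bp apart in 190 regions (59.6%). At gene ends the centres were a median of 514.75 bp apart, or 8.27% of the control width.

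The edges did not move in 1 way. The Eed cKO peak reached beyond the control peak on both sides or up to its edge in 94 regions and lay within it in 40. Both edges of the Eed cKO peak were displaced to higher coordinates in 98 regions and to lower coordinates in 87. The left edge differed by a median of 377 bp and the right edge by 353 bp. In 305 of the 319 regions the Eed cKO peak also missed all gene-end windows, and in the other 14 it reached one.

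**Figure D2:**
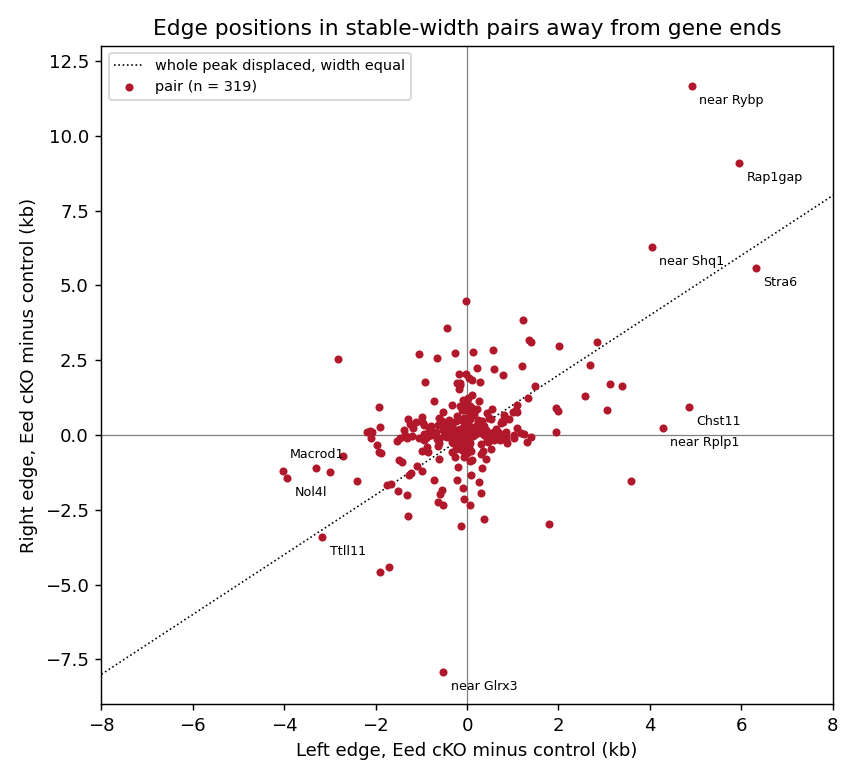
Position of the right edge against that of the left edge, each as Eed cKO minus control in kb, with 1 point for each of the 319 pairs. Most points crowd around the origin, those on the dotted diagonal are displaced without a change in width, and the labelled ones include the pair near Rybp, in which the Eed cKO peak ended 11.7 kb beyond the control peak.

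The pairs that coincided most closely included Rims3, which encodes a regulator of synaptic exocytosis. Its peak spanned 4.083 kb in Eed cKO and 4.096 kb in control (shared percentage 99.1). Regions near Tha1 (10.2 kb in Eed cKO, 10.1 kb in control, 98.8), Tnfaip2 (3.056 kb in Eed cKO, 3.023 kb in control, 98.7), Tcf7l1 (6.351 kb in Eed cKO, 6.481 kb in control, 98.0) and Esp38 (6.323 kb in Eed cKO, 6.191 kb in control, 97.8) followed. Tcf7l1 encodes a repressor of the TCF/LEF family that acts in hair follicle stem cells. These 5 pairs thus kept both their width and their place.

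The pairs with the least in common passed the width thresholds while sharing little of the length they covered jointly. In Rap1gap, which encodes an inactivator of the GTPase Rap1, the peaks spanned 11.8 kb in Eed cKO and 8.67 kb in control with a shared percentage of 15.3. In Ttll11, which encodes a tubulin polyglutamylase, they spanned 4.365 kb in Eed cKO and 4.599 kb in control with 15.5. The regions near Shq1 (8.585 kb in Eed cKO, 6.339 kb in control, 18.2), Cox10 (2.663 kb in Eed cKO, 3.019 kb in control, 25.4) and Cd7 (3.908 kb in Eed cKO, 3.050 kb in control, 27.7) came next. In these 5 regions a stable width did not mean a stable position.

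**Figure D3:**
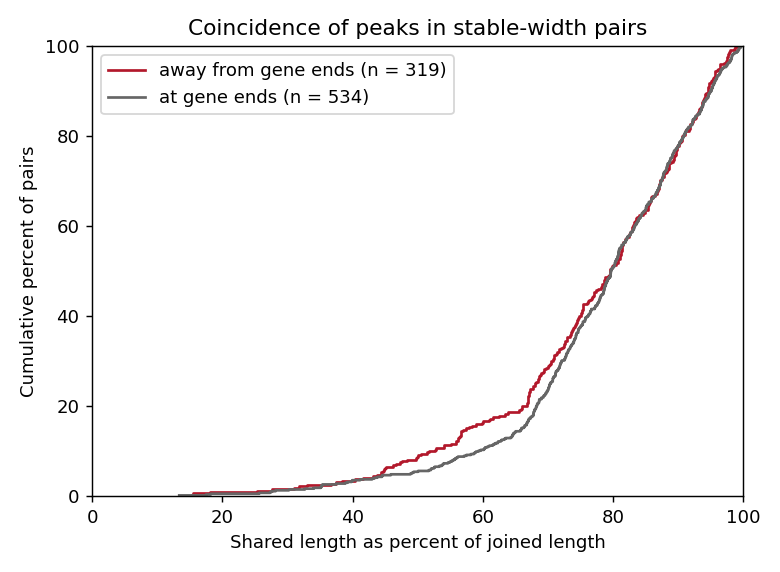
Cumulative percentage of pairs by shared length as a percentage of joined length, for the stable pairs away from gene ends (n = 319) and at gene ends (n = 534). The curves meet near their medians, 79.6% away from gene ends and 79.7% at gene ends, and 8.78% of pairs away from gene ends and 5.43% of those at gene ends lie below 50%.

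The widest region lay on chromosome 3 (52554638 to 52586151 in Eed cKO, 52552842 to 52589120 in control), 202.7 kb from Foxo1, a forkhead factor gene of insulin signalling. It spanned 31.5 kb in Eed cKO and 36.3 kb in control (86.9% shared) and held the start of the lncRNA Gm40047 shown above. Near Irx2, an Iroquois homeobox gene, a peak of 16.4 kb in Eed cKO and 16.6 kb in control (89.8% shared) lay 251.0 kb from the nearest coding gene end. Inside Txnrd2, which encodes mitochondrial thioredoxin reductase, the peaks spanned 18.4 kb in Eed cKO and 17.7 kb in control and shared 95.7%. Broad peaks that coincided closely in both lists were thus found both far from coding genes and within them.

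Other wide regions coincided less closely. Near Glrx3, a glutaredoxin gene 242.0 kb away, the peak spanned 15.5 kb in Eed cKO and 22.9 kb in control (63.9% shared). In Pxn, which encodes the focal adhesion protein paxillin, the widths were 11.2 kb in Eed cKO and 16.3 kb in control (68.6%). Near Rplp1, a ribosomal protein gene 52.4 kb away, they were 10.967 kb in Eed cKO and 15.025 kb in control (70.4%). These 3 peaks were narrower in Eed cKO, while the next 2 were wider there. Near Srbd1, 98.3 kb away, the widths were 19.8 kb in Eed cKO and 15.8 kb in control (79.7% shared). In Nrg2, which encodes the ErbB ligand neuregulin 2, they were 19.9 kb in Eed cKO and 14.5 kb in control (73.0%). Tcf20, with Mir3080, had 14.2 kb in Eed cKO and 14.4 kb in control (85.6%).

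Genes of the Polycomb machinery were reached by 6 of the 319 regions (1.88%, 0.865 to 4.04), counting the host gene or, outside genes, the gene with the nearest end within 50 kb. This compares with 1 of 282 pairs away from gene ends outside the width thresholds (0.355%, 0.0626 to 1.98), 15 of 1645 control peaks away from gene ends without an Eed cKO peak (0.912%, 0.553 to 1.499) and 4 of 534 stable pairs at gene ends (0.749%, 0.292 to 1.91). The intervals overlap. The 6 regions belong to 5 genes, so they are not 6 independent sites.

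The region near Rybp, which encodes a subunit of variant PRC1, lay 17.0 kb from the gene end. It spanned 23.5 kb in Eed cKO and 16.7 kb in control and shared 41.6%. The regions in Kdm2b, Phc2 and Auts2 were named after their values were seen. Kdm2b, whose protein brings variant PRC1 to CpG islands, held one of 6.963 kb in Eed cKO and 4.674 kb in control (67.1% shared) and one of 1.586 kb in Eed cKO and 1.655 kb in control (80.8%). Phc2, a polyhomeotic subunit gene of canonical PRC1, held one of 8.58 kb in Eed cKO and 5.98 kb in control (48.4%). Auts2, whose protein joins variant PRC1 in neurons, held one of 1.595 kb in Eed cKO and 1.230 kb in control, 420.2 kb from any coding gene end.

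Developmental regulators (5 lists of Hox, other homeobox, paired box to GATA, basic helix-loop-helix and zinc finger factors) were reached by 19 regions (5.96%, 3.85 to 9.11). As above, this counts the host gene or, outside genes, the gene with the nearest end within 50 kb. Regions outside genes and farther from a gene end are left out of the 19. The shares were 25 of 282 other pairs away from gene ends (8.87%), 138 of 1645 control peaks away from gene ends without an Eed cKO peak (8.39%) and 66 of 534 stable pairs at gene ends (12.4%). No Hox gene was among the 19. Homeobox genes outside the Hox clusters were reached by 9 regions (2.82%). This compares with 1.77% of other pairs away from gene ends and 3.1003% of control peaks there without an Eed cKO peak. In stable pairs at gene ends the share was 5.81%. The 9 regions belong to 5 genes, so they are not 9 independent sites. Of these genes, Zfhx3 held a region of 14.0 kb in Eed cKO and 13.5 kb in control (94.6% shared). Lmx1b, a regulator of dorsal limb identity, held one of 10.7 kb in Eed cKO and 8.92 kb in control (62.5%).

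The other developmental lists gave few regions each. Their shares are set beside those of the same sets as above, in the same order. Near Zic5, a zinc finger gene of neural development, the peak spanned 11.019 kb in Eed cKO and 11.603 kb in control and shared 94.8%. In Prdm16, a regulator of brown fat and haematopoietic stem cells, it spanned 6.73 kb in Eed cKO and 7.76 kb in control (67.1%). Both genes belong to a list with 5 regions (1.57%, beside 2.84%, 2.49% and 2.25%). Near Sox1, a factor of neural progenitors, the widths were 5.711 kb in Eed cKO and 5.570 kb in control (96.5%). Near Tbx3, a T-box gene of limb and mammary development, they were 2.461 kb in Eed cKO and 2.704 kb in control (91.01%). The paired box to GATA list had 4 regions (1.254%, beside 2.48%, 1.88% and 1.69%). The basic helix-loop-helix list had 1 (0.313%, beside 1.42%, 0.669% and 2.81%), near Bhlhe40, a clock-linked repressor gene. That region spanned 4.42 kb in Eed cKO and 3.08 kb in control.

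Signalling, neuronal and matrix genes were also reached. Shares are set beside those of the other pairs away from gene ends (other pairs), the control peaks there without an Eed cKO peak (control-only) and the stable pairs at gene ends (gene-end pairs). Channels and neurotransmitter receptors accounted for 7 regions (2.19%, beside 2.84% of other pairs, 1.58% of control-only peaks and 5.62% of gene-end pairs), among them one near the calcium channel subunit gene Cacna2d2 (10.4 kb in Eed cKO, 10.7 kb in control, 89.8% shared) and one in the kainate receptor gene Grik4 (8.13 kb in Eed cKO, 6.78 kb in control, 83.4%). Cadherin and axon guidance genes had 5 (1.57%, beside 2.13% of other pairs, 1.52% of control-only peaks and 2.996% of gene-end pairs), including Lingo1 (6.87 kb in Eed cKO, 9.11 kb in control, 75.4%), whose promoter is shown above, and Slit3, a Robo ligand gene (5.84 kb in Eed cKO, 5.57 kb in control, 95.2%). Matrix genes had 4 (1.254%, beside 0% of other pairs, 0.547% of control-only peaks and 1.498% of gene-end pairs), led by the region near Fbln2, which encodes fibulin 2 (12.4 kb in Eed cKO, 10.4 kb in control, 84.0%). Secreted ligands had 2 (0.627%, beside 1.06% of other pairs, 0.973% of control-only peaks and 2.06% of gene-end pairs), Bmp3 (2.43 kb in Eed cKO, 2.36 kb in control) and near Wnt2b (2.38 kb in Eed cKO, 2.66 kb in control). Receptors and pathway inhibitors had 2 (0.627%, beside 0.709% of other pairs, 1.398% of control-only peaks and 1.87% of gene-end pairs), in Ror2, a Wnt5a receptor gene (3.25 kb in Eed cKO, 4.37 kb in control), and in Epha10, an ephrin receptor gene (3.06 kb in Eed cKO, 2.24 kb in control).

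Genes that mark skin cell types were few in these regions and in the sets beside them. The hair follicle list was reached only at Tcf7l1, by 2 neighbouring regions (0.627%), against 1.42% of the other pairs away from gene ends, 0.790% of control peaks there without an Eed cKO peak and 0.562% of stable pairs at gene ends. Of the 2 regions, the second spanned 8.09 kb in Eed cKO and 6.01 kb in control (74.3% shared). No region was assigned to a basal keratinocyte, suprabasal, Merkel cell, melanocyte, dermal or leukocyte marker, nor to an olfactory receptor, ribosomal protein or Hox gene. Each such 0 of 319 allows a share of up to 0.940%, taken as 3 counts of the total. Basal keratinocyte markers and olfactory receptors had none in the other 3 sets either, and the remaining lists named here had at most 1.06% in any of them. Zinc finger genes of the Zfp series had 2 (0.627%, beside 2.13% of other pairs, 1.09% of control-only peaks and 0.375% of gene-end pairs), in Zfp469 (10.410 kb in Eed cKO, 10.951 kb in control) and Zfp423 (3.865 kb in Eed cKO, 5.676 kb in control).

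By annotation, 141 of the 319 control peaks overlapped the span of a coding gene (44.2%, 38.9 to 49.7), 58 overlapped only a lncRNA among these classes (18.2%), 5 another gene and 115 no annotated gene (36.1%). The share inside coding genes was 123 of 282 in the other pairs away from gene ends (43.6%) and 690 of 1645 in control peaks without an Eed cKO peak (41.9%). Regions inside coding genes had median widths of 4.47 kb in Eed cKO and 4.75 kb in control, and those outside had 4.43 kb in Eed cKO and 4.21 kb in control. Their median shared percentages were 78.3 inside and 80.8 outside. The host genes were long, with a median span of 93.6 kb, against 91.1 kb for hosts of control peaks without an Eed cKO peak and 17.2 kb for all coding genes. A peak far from both ends of a gene needs a long gene, so this length follows from the selection.

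Along host genes of known strand, cut into 4 equal parts, the regions fell 33, 31, 31 and 24 times from the 5′ to the 3′ part. Control peaks without an Eed cKO peak gave 139, 144, 141 and 116 of 540 such entries. Both groups were spread along the gene. The nearest coding gene end was a median of 21.3 kb away. It was within 10 kb for 101 regions (31.7%), beside 25.9% of other pairs away from gene ends and 27.3% of control peaks without an Eed cKO peak. It was over 100 kb away for 45 (14.1%, beside 16.0% and 18.2%). The 45 included one near Sox9 (196.6 kb away, 8.49 kb wide in Eed cKO and 9.38 kb in control) and one near Nr2f2 (399.8 kb away). Both were chosen after their values were seen.

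The host or nearest coding gene was itself marked at an end in Eed cKO for 92 regions (28.8%, 24.1 to 34.0) and in control for 139 (43.6%, 38.2 to 49.1). Over all 21887 coding genes, 7.40% were marked at an end in Eed cKO and 11.7% in control. These shares count genes, while those of the regions count regions, by any host gene or else the nearest gene at any distance. The units thus differ. For 74 regions the gene was marked in both lists and for 162 (50.8%) in neither. Among the other pairs away from gene ends the gene was marked in Eed cKO for 103 of 282 (36.5%) and in control for 122 (43.3%). Among control peaks without an Eed cKO peak it was marked in Eed cKO for 384 of 1645 (23.3%) and in control for 700 (42.6%). The gene was thus unmarked at both ends, in both lists, about as often as not. In both other sets the share marked in control lay inside the interval of the 319 regions, and the share marked in Eed cKO lay outside it, above in the other pairs and below in the control peaks without an Eed cKO peak. The Eed cKO counts include a pair's own Eed cKO peak where it reached an end of that gene. The control peaks of every set avoid gene ends by selection, and control peaks without an Eed cKO peak have no partner. The Eed cKO shares of the sets were thus not counted on equal terms, and no difference was tested.

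**Figure D4:**
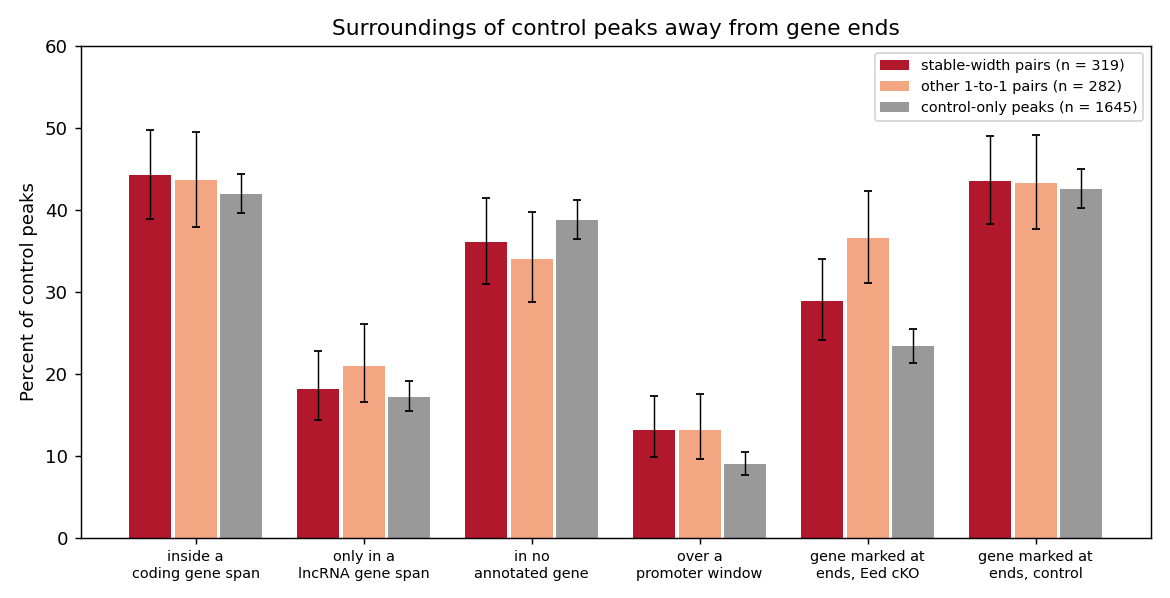
Percentage of control peaks away from gene ends in each kind of surroundings, with bars for the stable pairs (n = 319), the other 1-to-1 pairs (n = 282) and the control peaks without an Eed cKO peak (n = 1645), and 95% Wilson intervals as error bars. The gene at the stable pairs is marked at its ends in 28.8% of cases in Eed cKO and in 43.6% in control.

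Counted among these regions alone, most had no neighbour within 100 kb, but some formed runs. Other peaks were left out of this count, so a single region need not be isolated. Any other control peak lay within 10 kb of 97 of the 319 regions (30.4%). This share was 32.6% in other pairs away from gene ends and 35.0% in control peaks there without an Eed cKO peak. With a gap of at most 100 kb between neighbours, 30 runs held 65 regions and 254 regions were single. The longest by number lay at Chst11, a chondroitin sulfotransferase gene on chromosome 10, where 4 regions fell in 163.1 kb that held 7 Eed cKO and 7 control peaks. Their widths in control ran to 12.294 kb. Runs of 3 lay near Shq1 (81.4 kb), at Sh2b3 and Cux2, and around Lmx1b (124.2 kb, with 4 Eed cKO and 5 control peaks). Several regions in 1 gene were also seen at Cux1, Cux2, Gse1, Kdm2b, Macrod1, Megf6, Mylk, Nol4l, Shank3, Speg and Tns3, with 2 each.

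The 42 regions with a promoter window (13.2%, 9.89 to 17.3) held 61 windows of 46 genes, 22 windows of 16 coding genes and 39 of 30 lncRNAs. Some windows of 1 gene overlap and share sequence. Windows occurred in 37 of 282 other pairs away from gene ends (13.1%) and in 148 of 1645 control peaks without an Eed cKO peak (8.997%). Regions with a window were wider, with medians of 5.85 kb in Eed cKO and 5.75 kb in control, against 4.27 kb in Eed cKO and 4.12 kb in control for regions without one. A wider peak has more room to overlap a window, and control peaks without an Eed cKO peak were narrower than the regions. The window shares were not adjusted for width. Of the 61 windows, 50 lay wholly inside the shared stretch. Of the 8 that missed the Eed cKO peak, 4 belonged to Stra6, a retinol transporter gene.

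Windows with a GC content above 50% and an observed to expected CpG ratio above 0.6 were called CpG-dense. They made up 13 of the 61 (21.3%, 12.9 to 33.1), against 14 of 48 in other pairs (29.2%), 48 of 204 in control peaks without an Eed cKO peak (23.5%) and 1030 of 11834 windows away from gene ends in no peak of either list (8.70%). Of all 32851 windows in the table, 33.3% were CpG-dense. Coding gene windows in the 319 regions were CpG-dense in 11 of 22 (50.0%, 30.7 to 69.3) and lncRNA windows in 2 of 39 (5.13%, 1.42 to 16.9). Coding windows were CpG-dense in 8 of 12 in other pairs (66.7%) and in 31 of 69 in control peaks without an Eed cKO peak (44.9%). For lncRNA windows these were 6 of 36 (16.7%) in other pairs and 17 of 135 (12.6%) in those control peaks. Away from gene ends in no peak the shares were 25.3% for coding genes and 3.80% for lncRNAs. In the stable pairs at gene ends, 300 of 490 windows were CpG-dense (61.2%).

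**Figure D5:**
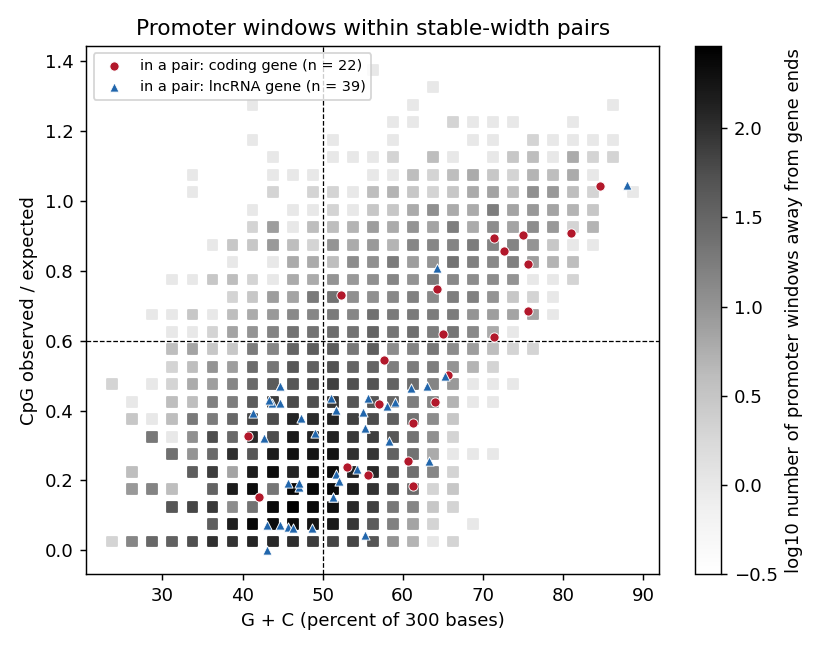
Observed to expected CpG ratio against G + C percentage of promoter windows of 300 bases, with a point for each window in the 319 regions and grey squares shaded by the log10 number of all windows away from gene ends. Dashed lines mark 50% and 0.6, and the CpG-dense upper right part holds 11 coding windows and 2 lncRNA windows.

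The CpG-dense windows lay in 11 regions, of which 9 held windows of coding genes: Speg, Begain, Shank3, Pigz, Eva1c, Pde10a, Grid2ip, Phf24 and Lingo1. Each of these windows starts a transcript inside the gene span and not at its outer end. The other 2 held Miat and Gm15609, an lncRNA within Shank3 with 59 CpG in its window. Shank3 thus had a CpG-dense window in both of its regions. The Shank3 region with the sequence shown above spanned 7.83 kb in Eed cKO and 5.94 kb in control (75.2% shared), and the one with Gm15609 spanned 6.03 kb in Eed cKO and 5.44 kb in control (90.2% shared). Begain, which encodes a postsynaptic density protein, had 3 CpG-dense windows in 1 region of 9.87 kb in Eed cKO and 10.2 kb in control (83.2% shared). The region with the Miat window spanned 5.72 kb in Eed cKO and 3.89 kb in control (68.0% shared), and the one with the Gpr1 window spanned 2.42 kb in Eed cKO and 3.18 kb in control (43.1% shared).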

How the data were processed

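The deposited data used here were 1 peak list per genotype in mm10, holding chromosome, start and end of each peak, per the file headers, with no score. The submitters' processing notes name Bowtie2 2.3.3.1 and SAMtools 1.9. Not given in the sources used here are the peak caller, its threshold and the step that combined both libraries of each genotype.

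Peaks were paired and annotated with RefSeq tables of GRCm38.p6 (Python 3.11.15, pandas 2.3.3, numpy 2.4.6, scipy 1.17.1). Coordinates count from 1. The regions and the 21 gene lists were chosen with earlier results of these data known. A region was assigned to its host gene, or to the gene with the nearest end within 50000 bp for the lists. Named regions were the 10 widest in control, the 5 with the highest and the 5 with the lowest shared percentage, up to 2 per list and those next to a threshold. Others, including all shown sequences, were chosen after their values were seen. Of the regions that the rule names, 1 is not reported here. The procedures were tested on simulated data. Alternatives changed the overlap, window, width band, merging, peak width and chromosomes.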

Additional observations from a re-analysis of the deposited data

How the results depend on the processing

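Of 64 recomputed values (8 results under 8 alternatives), 54 stayed within 1.5 times the count or inside the interval of the value given, and 10 moved. Requiring each peak to cover 50% of the other gave 27.1% of pairs, with 311 of the 319 regions kept. A gene-end window of 5000 bp gave 18.3% of pairs and 51.7% of host or nearest genes marked in control. A narrower band of width ratios, above 0.8 and below its inverse, left 208 regions, 14.1% of pairs, with a median shared percentage of 86.7. Using the wider peaks alone left 212 regions, 19.1% of pairs, with median widths of 6003.5 bp in Eed cKO and 5735 bp in control. These follow from which pairs each setting admits. No paired analysis was possible because each genotype has 1 peak list, although the labels number the libraries alike, and for the same reason no library could be left out. Unknown depth limits every statement on an absent peak.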

Other observations

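The 319 regions were spread over 20 chromosomes. Their share of the control peaks away from gene ends ran from 5 of 66 on chromosome 14 (7.58%, 3.28 to 16.5) to 9 of 34 on chromosome 16 (26.5%, 14.6 to 43.1). Chromosome 11 had the most, 38 of 268 (14.2%, 10.5 to 18.9). The X chromosome had 4 of 42 (9.52%, 3.77 to 22.1): in Gpc3, which encodes the heparan sulfate proteoglycan glypican 3, in Mid1, a ubiquitin ligase gene, near Bcor, which encodes a corepressor of variant PRC1, and near 1700080O16Rik. Differences between chromosomes were not tested.

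By control width, the regions were 10.4% of the narrowest class of control peaks away from gene ends (0.543 to 1.916 kb), then 8.92%, 12.7%, 18.05% and 17.6% in the widest class (6.316 to 63.799 kb), with the last 2 classes at 85 and 83 of 471. Over the same classes the share of control peaks met by any Eed cKO peak was 23.9%, 22.7%, 26.3%, 32.1% and 45.9%. The widest class thus had the highest share met by any Eed cKO peak, while the regions' shares in the last 2 classes had nearly the same intervals (14.8 to 21.8 and 14.4 to 21.3).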
